A study of Homo sapiens with 15 samples.

Results

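The comparison described here is that of uninduced cells at t = 48 with the same cell line at t = 0, over 6 of the 15 arrays of the series, 3 in each group. The arrays were taken by their titles, control cells at t = 48 against cells at t = 0, and every gene measured was described. The cells were IMR32, an established human neuroblastoma line kept in DMEM with 10% fetal calf serum, and carried a transfected MSX1 gene that doxycycline switches on; whether the line was 1 clone is not stated. Neither group had received doxycycline, and both carried the construct, so the groups differed by time in culture and by whatever was done to the cultures in that time. The other 9 arrays held cells induced with doxycycline for t = 8, t = 24 and t = 48, 3 arrays each. The labels give no unit for t, no control cells at t = 8 or t = 24, and no statement on medium change, cell density or passage. The labels do not say that replicates were grown as separate cultures, so each p-value is set by how far these arrays lay apart, and that may be technical variation alone.

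As background, cells left in a dish change the medium they grow in, become denser and touch more neighbours, and their secreted ligands accumulate while serum factors are used up. Bone morphogenetic proteins (BMPs), which serum also contains, act through receptor kinases that phosphorylate SMAD proteins, and the ID genes are among the most direct targets of those SMADs. ID proteins bind basic helix-loop-helix transcription factors and keep them off DNA, which in neural precursors holds back differentiation. Neuroblastoma arises from the sympathoadrenal branch of the neural crest, so neural crest, noradrenergic and neuronal genes were followed beside the BMP targets. In bulk RNA of this kind, fewer cells expressing a gene and less RNA of it per cell cannot be told apart.

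In these uninduced cells ID1, ID2 and ID3 fell, and so did the genes of the neural crest factors SNAI2 and SOX9. Of 15 measured BMP targets, the IDs among them, 6 fell, MSX1 included, and 1 rose; the 6 were 3 without control replicate 3. TNR, ENPP2, RGS4, CHRNA1 and the BMP antagonist gene CHRDL1 rose. No gene of the 2 cell cycle lists passed (37 and 36 measured). Lists of that size can hold 0 calls at the share of 0.846% over all genes. Of 12880 genes tested, 109 passed an adjusted p of 0.05 in limma (0.846%), 62 of them higher in control cells at t = 48 (0.481%) and 47 lower (0.365%). When arrays were centred on their medians, 88 genes passed, of which 40 were higher and 48 lower, so the share of rises among the calls moved to 45.5% with that scaling, against 56.9% without it. At least 2-fold changes were fewer, 9 higher and 7 lower. The median log2 fold change over all genes was -0.005, with quartiles of -0.12 and 0.13.

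**Figure D1:**
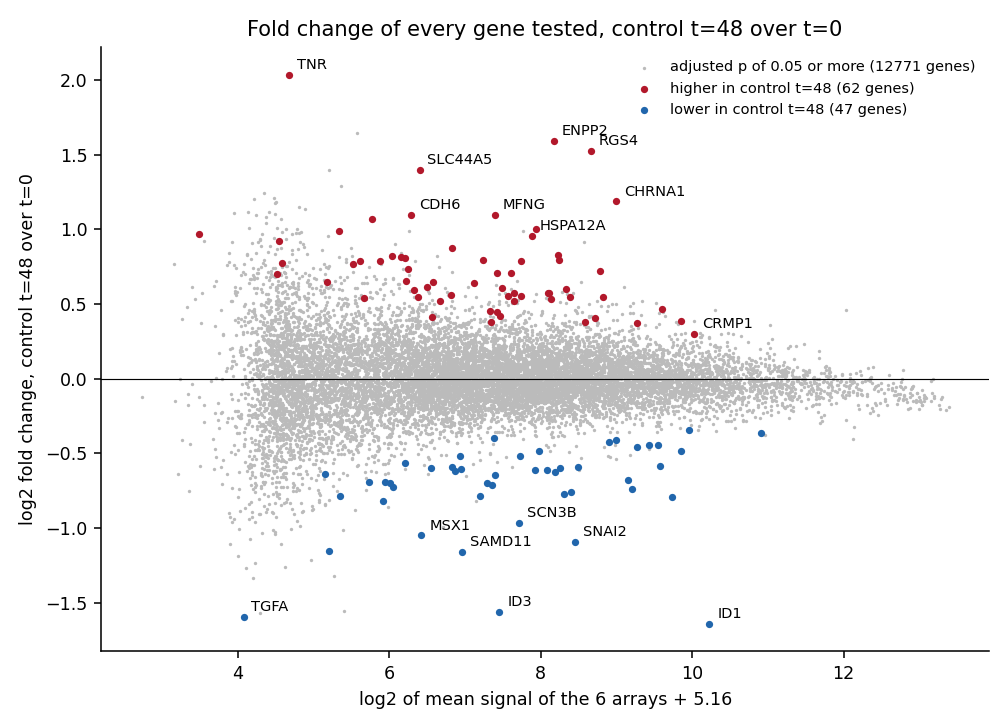
Log2 fold change, control t = 48 over t = 0 (vertical axis), against the log2 of the mean signal over the 6 arrays plus the offset (horizontal axis), 1 point per gene, with genes past an adjusted p of 0.05 in limma coloured red where higher in control t = 48 and blue where lower. The middle of the 12880 genes lies between the quartiles of -0.12 and 0.13, and the 109 called genes stand outside that band on both sides, and on this scale, with the offset of 5.16, TNR is plotted highest and ID1 and TGFA lowest.

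The signals of the 109 called genes did not overlap between the 3 control arrays at t = 48 and the 3 arrays at t = 0. Over all genes tested that separation was seen in 18.8%, most of which did not pass. The calls also rest on a spread estimated over all 15 arrays. With only the 6 compared arrays in the fit 0 genes passed in limma, 1439 had an unadjusted p under 0.05, and the lowest adjusted p was 0.062; the 109 genes then kept their direction, each with an unadjusted p of at most 0.00727. Leaving out 1 array at a time gave 51 calls without control replicate 2, 33 without control replicate 3, 44 without t = 0 replicate 1, 58 without t = 0 replicate 2, 70 without t = 0 replicate 3 and 88 without control replicate 1. Of the 109 genes, 30 passed in each of these 6 fits, 18 higher and 12 lower, and they are named in the next paragraph.

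The 12 lower ones were C11orf96, FAM43A, ID1, ID3, LIMCH1, MFAP4, MSX1, SAMD11, SCN3B, SHB, SNAI2 and SOX9. The 18 higher ones were ATP8A1, CDH6, CHRDL1, CHRNA1, CRABP2, DCX, ENPP2, GALNT16, GPR155, GPR160, HSPA12A, IFI44L, LRATD2, MAML3, MFNG, RGS4, SLC1A1 and TNR.

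Each array had been scaled to the same trimmed mean of 100.01. The ACTB control probe sets had 3'-to-5' ratios of 1.22 to 1.31 on control arrays at t = 48 and of 1.18 to 1.39 at t = 0, and those of GAPDH lay between 0.96 and 1.09 over the series. The 3 control probe sets for 18S ribosomal RNA read 69.1 to 104 on the control arrays at t = 48, against 81.9 to 89.5 on t = 0 replicate 1, 148.5 to 191 on replicate 2 and 421 to 704 on replicate 3. The part of this ribosomal signal in the results was not tested, and the counts without t = 0 replicate 2 or 3 stand above. A hybridisation control probe set for BioC read 101 on induced t = 24 replicate 1 and 121 on induced t = 48 replicate 3. On the other arrays it read 306 to 468. With these weak-control arrays left out of the fit, 96 genes passed in the control comparison.

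ID1, ID2 and ID3 are shown with the sequence around their transcription start, since these 3 neighbours in function moved together. The windows come from RefSeq on GRCh38.p14, run from 250 bases before to 50 bases after the start, and are written 5' to 3' on the strand of the gene, with matches to CCAAT or its reverse complement ATTGG in capitals. They lie at chr20:31605039-31605338 on the plus strand for ID1, chr2:8681806-8682105 on the plus strand for ID2 and chr1:23559452-23559751 on the minus strand for ID3.
ID1: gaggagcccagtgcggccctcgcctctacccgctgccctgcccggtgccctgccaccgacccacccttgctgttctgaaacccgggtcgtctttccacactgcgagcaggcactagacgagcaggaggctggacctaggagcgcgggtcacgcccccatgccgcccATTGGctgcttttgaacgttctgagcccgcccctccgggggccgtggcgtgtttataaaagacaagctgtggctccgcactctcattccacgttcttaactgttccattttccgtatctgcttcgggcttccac
ID2: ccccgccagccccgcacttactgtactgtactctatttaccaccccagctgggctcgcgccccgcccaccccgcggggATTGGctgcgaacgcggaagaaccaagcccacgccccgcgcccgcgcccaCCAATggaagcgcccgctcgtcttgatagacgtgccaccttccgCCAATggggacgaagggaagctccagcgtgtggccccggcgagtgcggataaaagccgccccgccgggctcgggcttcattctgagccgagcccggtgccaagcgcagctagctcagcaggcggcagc
ID3: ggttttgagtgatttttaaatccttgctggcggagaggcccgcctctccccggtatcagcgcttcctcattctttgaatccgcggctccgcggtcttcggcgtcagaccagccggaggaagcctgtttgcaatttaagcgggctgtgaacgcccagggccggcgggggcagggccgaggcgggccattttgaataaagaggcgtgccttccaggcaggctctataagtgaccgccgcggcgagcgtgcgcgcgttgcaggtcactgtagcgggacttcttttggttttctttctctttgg
The ID1 window holds 1 match, which starts at -84 from the gene's start, the ID2 window holds 3, and the ID3 window holds 0. Of the 27305 genes with promoter windows, 39.7% have 1 with such a match, as did 4 of the 6 BMP targets that fell and 5 of the 7 other measured members that have a window. GGCGCC, a palindrome that SMAD proteins are known to bind, was in the windows of 0 of the 6 that fell and of 3 of the 7 others, against 22.0% of all genes. A match is a string of letters and not a known site, and a window without one says nothing about the factor.

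ID1 showed one of the largest falls. Its signal was 674, 476 and 593 in control cells at t = 48, against 1879, 1801 and 1742 at t = 0. The highest control array stood far below the lowest t = 0 array, and the log2 fold change was -1.64 (SE 0.19, limma adjusted p = 0.00225). ID3 had signals of 88.5, 67.6 and 97.0 in control cells at t = 48, against 247, 274 and 248 at t = 0, a fold change of -1.56 on the log2 scale (SE 0.14, adjusted p = 0.000431). Both calls held without any 1 of the 6 arrays, as did that of MSX1, below, and with an offset of 1 or 16 the value of ID1 was -1.65 or -1.62. For ID2 the signals were 559, 471 and 514 in control cells at t = 48, against 707, 758 and 664 at t = 0 (-0.46, SE 0.08, adjusted p = 0.0194). The ID2 call was lost without control replicate 2 or 3 or without t = 0 replicate 1 or 2, with adjusted p values up to 0.105. ID4 gave -0.53 with a larger spread and did not pass (adjusted p = 0.244).

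The inhibitory SMAD gene SMAD6, which SMAD signalling switches on as a brake on itself, read 125, 125 and 108 in control cells at t = 48, against 211, 203 and 184 at t = 0. It fell by 0.71 on the log2 scale (SE 0.11, adjusted p = 0.00896). ATOH8, a helix-loop-helix factor gene known as a BMP target, read 242, 225 and 209 in control cells at t = 48, against 357, 360 and 333 at t = 0 (-0.63, SE 0.09, adjusted p = 0.00653). Without control replicate 3 the adjusted p was 0.051 for ATOH8 and 0.0592 for SMAD6, and SMAD6 was also lost without t = 0 replicate 1. SMAD7 and BAMBI, which encode further inhibitors of the receptors, gave -0.32 and -0.31 and did not pass (adjusted p = 0.291 and 0.14). The 3 control arrays lay below the 3 arrays at t = 0 for both, but 18.8% of all genes tested were separated in 1 direction or the other.

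Of the 15 measured genes in the list of IDs, inhibitory SMADs and other BMP targets, 6 fell and 1 rose, and 13 had a log2 fold change below 0, with a median of -0.32 against -0.005 over all genes. The gene that rose was DLX5, a homeobox gene of bone and forebrain, with 86.3, 98.1 and 95.7 in control cells at t = 48, against 71.2, 56.5 and 59.9 at t = 0 (0.55, adjusted p = 0.0216); its call was lost without 4 of the 6 arrays taken 1 at a time. The number of list members that fell was 3 without control replicate 3, 4 without t = 0 replicate 1 and 5 or 6 in the other 4 fits with 1 array left out, and the list's median stayed between -0.38 and -0.29 in these 6 fits.

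**Figure D2:**
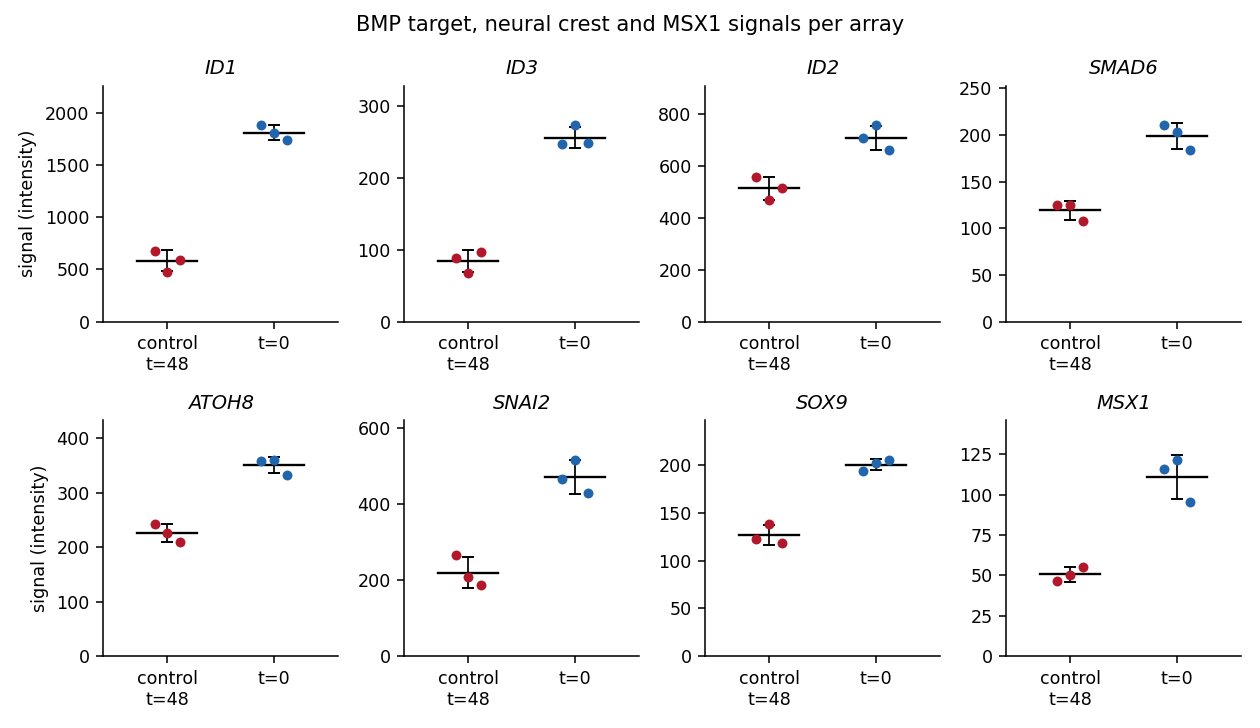
Signal (intensity, vertical axes from 0) of 8 genes lower in control cells, on the 3 control arrays at t = 48 (red, left) and the 3 arrays at t = 0 (blue, right) in each panel, with the mean as a line and the SD as bars. In each panel the highest control point lies below the lowest t = 0 point, and the gap is widest, for the height of the axis, for ID1 and ID3.

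On the ligand side of the pathway, CHRDL1 passed, although it was not in the list of BMP and TGF-beta ligand and receptor genes. The gene, which encodes a secreted chordin-like protein that binds BMPs, read 178, 177 and 202 in control cells at t = 48, against 120, 95.3 and 99.9 at t = 0 (0.80, SE 0.11, adjusted p = 0.00509). This call held without any 1 array. NOG, the gene of the BMP antagonist noggin, was dim on both sides, at 8.0, 10.5 and 10.7 in control cells at t = 48, against 3.2, 0.9 and 3.4 at t = 0. These values lie below the array medians of 18.1 to 22.6, its log2 fold change of 0.97 (adjusted p = 0.0226) depends on the offset of 5.16 (1.70 with an offset of 1, 0.48 with 16), and the call was lost without 4 of the 6 arrays. NOG was the 1 member of 18 measured BMP and TGF-beta ligand and receptor genes that passed, and the list had a median of 0.17. BMP7 gave 0.65 on scattered signals and did not pass (adjusted p = 0.727), and TGFB1 gave -0.38 (adjusted p = 0.144).

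Among regulators of the neural crest, SNAI2 and SOX9 fell. SNAI2, a zinc finger repressor gene of migrating crest cells, read 265, 208 and 186 in control cells at t = 48, against 467, 516 and 429 at t = 0 (-1.09, SE 0.13, adjusted p = 0.00225). SOX9 read 123, 138 and 119 in control cells at t = 48, against 194, 202 and 206 at t = 0 (-0.65, SE 0.09, adjusted p = 0.00475). Both genes passed with any 1 array left out. The other 14 measured members of this list did not pass. They included SNAI1 at -0.58 (adjusted p = 0.203) and TWIST1 at 0.31 (adjusted p = 0.518), and the list's median was 0.02.

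MSX1, which encodes a homeodomain transcription factor and is itself a BMP target, is the gene the construct carries. Its signal was 46.5, 50.2 and 55.5 in control cells at t = 48, against 116, 122 and 95.5 at t = 0. MSX1 was thus lower on each control array than on any array at t = 0 (-1.05, SE 0.15, adjusted p = 0.00501), with values between -1.15 and -0.98 when 1 array was left out. With only the 6 arrays in the fit its adjusted p was 0.113. A second, dimmer probe set gave -0.57 and did not pass. Whether either probe set reads the endogenous gene, the construct or both is not known here. In induced cells the brighter probe set had means of 161, 165 and 83.2 at t = 8, t = 24 and t = 48, beside 111 at t = 0. Against t = 0 these gave 0.51, 0.55 and -0.40 on the log2 scale (limma adjusted p = 0.128, 0.0299 and 0.0777).

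A further set of falls belonged to no BMP or crest list. SAMD11 had signals of 85.7, 74.1 and 57.8 in control cells at t = 48, against 178, 181 and 144 at t = 0 (-1.16, adjusted p = 0.00372). SCN3B, a sodium channel beta subunit gene, had 154, 132 and 125 in control cells at t = 48, against 292, 287 and 240 at t = 0 (-0.97, adjusted p = 0.00225), and its second probe set gave -1.03. LIMCH1, which encodes an activator of non-muscle myosin, fell by 0.76 on the log2 scale (adjusted p = 0.00441), and 3 further probe sets of it gave between -1.01 and -0.83. FAM43A (-0.79), C11orf96 (-0.74), the adaptor gene SHB (-0.70) and MFAP4 (-0.68), a gene of elastic fibres, fell as well, and these 7 genes passed without any 1 array.

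The remaining large falls were less firm. CHST8, a sulfotransferase gene, fell by 1.15 on the log2 scale (adjusted p = 0.0226), with 18.5, 24.1 and 11.9 in control cells at t = 48, against 46.1, 49.6 and 41.3 at t = 0. TGFA, which encodes a ligand of the epidermal growth factor receptor, read 3.8, 2.7 and 2.9 in control cells at t = 48, against 14.5, 25.3 and 21.2 at t = 0. The control values of TGFA lay below the array medians, and so did its value on t = 0 replicate 1. It reached the median only on t = 0 replicates 2 and 3 and induced t = 24 replicate 3, so it was kept mainly through the group where it was high. Its -1.60 (adjusted p = 0.0385) compares a dim signal with a dimmer one and depends on the offset, with -2.34 at an offset of 1 and -0.91 at 16. EMILIN2 (-0.82), KLF2 (-0.78), SFRP1 (-0.77), DLX3 (-0.72), DAB1 (-0.70), PALMD (-0.69) and the selenoprotein gene SELENOW (-0.79) also fell. TGFA and PALMD lost their call when any of the 6 arrays was left out (adjusted p up to 0.17), CHST8, EMILIN2, KLF2 and DAB1 with 5 of the 6 (up to 0.213), SFRP1 and DLX3 with 4 (up to 0.176), and SELENOW without control replicate 3 (0.0592).

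Noradrenergic genes gave single calls. SLC6A2, the noradrenaline transporter gene, fell by 0.62 on the log2 scale (adjusted p = 0.0251), with 93.2, 71.5 and 97.5 in control cells at t = 48, against 153, 130 and 127 at t = 0. TLX2, a homeobox gene of sympathetic and enteric neurons, fell by 0.49 (adjusted p = 0.00901). DBH, the enzyme that makes noradrenaline, read 94.4, 95.0 and 99.2 in control cells at t = 48, against 53.9, 36.0 and 49.6 at t = 0. The groups did not overlap, as was so for 18.8% of all genes tested. Its 0.99 had an SE of 0.40 from the spread over the whole series and did not pass (adjusted p = 0.361). SLC6A2 was 1 of 15 measured catecholamine and chromaffin granule genes and TLX2 1 of 19 adrenergic regulators that passed. Each of these 2 calls was lost without 3 of the 6 arrays, with adjusted p values up to 0.0991.

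On the rising side, TNR went with very dim signals at t = 0. It encodes tenascin-R, an extracellular matrix glycoprotein of the nervous system, and read 29.2, 34.2 and 44.8 in control cells at t = 48, against 2.8, 7.6 and 4.5 at t = 0. The values at t = 0 lay below the array medians and those at t = 48 above them (adjusted p = 0.00475), and TNR passed without any 1 array. Its log2 fold change of 2.04 is set in part by the offset of 5.16, and was 2.69 with an offset of 1 and 1.31 with 16. ENPP2 encodes autotaxin, the secreted enzyme that makes lysophosphatidic acid. Its signals were 306, 403 and 587 in control cells at t = 48, against 135, 113 and 160 at t = 0 (1.59, SE 0.19, adjusted p = 0.00234). RGS4, a regulator of G protein signalling, read 495, 544 and 757 in control cells at t = 48, against 191, 194 and 218 at t = 0 (1.53, SE 0.15, adjusted p = 0.000755). For ENPP2 and RGS4, control replicate 3 was the highest of the 3 arrays, and both genes passed without any 1 of the 6 arrays.

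CHRNA1, the alpha subunit gene of the muscle-type nicotinic acetylcholine receptor, read 674, 684 and 760 in control cells at t = 48, against 287, 298 and 336 at t = 0 (1.19, SE 0.12, adjusted p = 0.0011). The glutamate transporter genes SLC1A1 and SLC1A2 rose by 0.65 and 0.64 on the log2 scale (adjusted p = 0.00372 and 0.0168). OPRK1, the kappa opioid receptor gene, was dim and read 27.7, 22.1 and 26.9 in control cells at t = 48, against 11.9, 9.5 and 11.7 at t = 0 (0.92, adjusted p = 0.00957). GPR155 (0.87), the lipid flippase gene ATP8A1 (0.83) and GPR160 (0.73) rose with calls that held without any 1 array, as did CHRNA1 and SLC1A1. OPRK1 lost its call without control replicate 3 or t = 0 replicate 2 (adjusted p up to 0.0619), and SLC1A2 without 3 of the arrays (up to 0.0976).

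The cadherin gene CDH6 rose by 1.09 (adjusted p = 0.00653), with 85.0, 103 and 116 in control cells at t = 48, against 44.5, 37.9 and 51.9 at t = 0. Its 4 other probe sets gave -0.18 to 0.48 and did not pass over all probe sets, so the rise is that of 1 probe set, which passed without any 1 array. IFI44L, an interferon-induced gene (0.70), LRATD2 (0.81), the retinoic acid binding protein gene CRABP2 (0.57) and the glycosyltransferase gene GALNT16 (0.60) rose and also passed without any 1 array. SLC44A5 (1.40, adjusted p = 0.0164), which encodes a choline transporter-like protein, CNTN3 (1.07, adjusted p = 0.0485), a contactin gene, and TMEM178A (0.99, adjusted p = 0.0315) also rose. Their calls were lost without 3, 6 and 5 of the 6 arrays taken 1 at a time, with adjusted p values up to 0.0937, 0.198 and 0.159.

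HSPA12A, a distant member of the heat shock protein 70 family, had the lowest adjusted p of the comparison. Its signals were 303, 310 and 309 in control cells at t = 48, against 148, 162 and 159 at t = 0 (0.96, SE 0.07, adjusted p = 0.000181). MFNG, which encodes a fringe glycosyltransferase that modifies Notch receptors, read 211, 218 and 247 in control cells at t = 48, against 100, 102 and 106 at t = 0 (1.09, SE 0.10, adjusted p = 0.000431). MAML3, a co-activator of Notch, rose by 0.52 (adjusted p = 0.00421). These 3 genes passed without any 1 array. MFNG and MAML3 were 2 of 24 measured Notch genes, of which 0 fell and whose median was 0.00. Of 24 measured Wnt genes, the receptor gene FZD6 rose (0.79, adjusted p = 0.00896; 0.0592 without control replicate 3) and SFRP1, above, fell, and the median was 0.14. LFNG, another fringe gene, gave -1.32 with 1 very low control array and did not pass (adjusted p = 0.24).

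**Figure D3:**
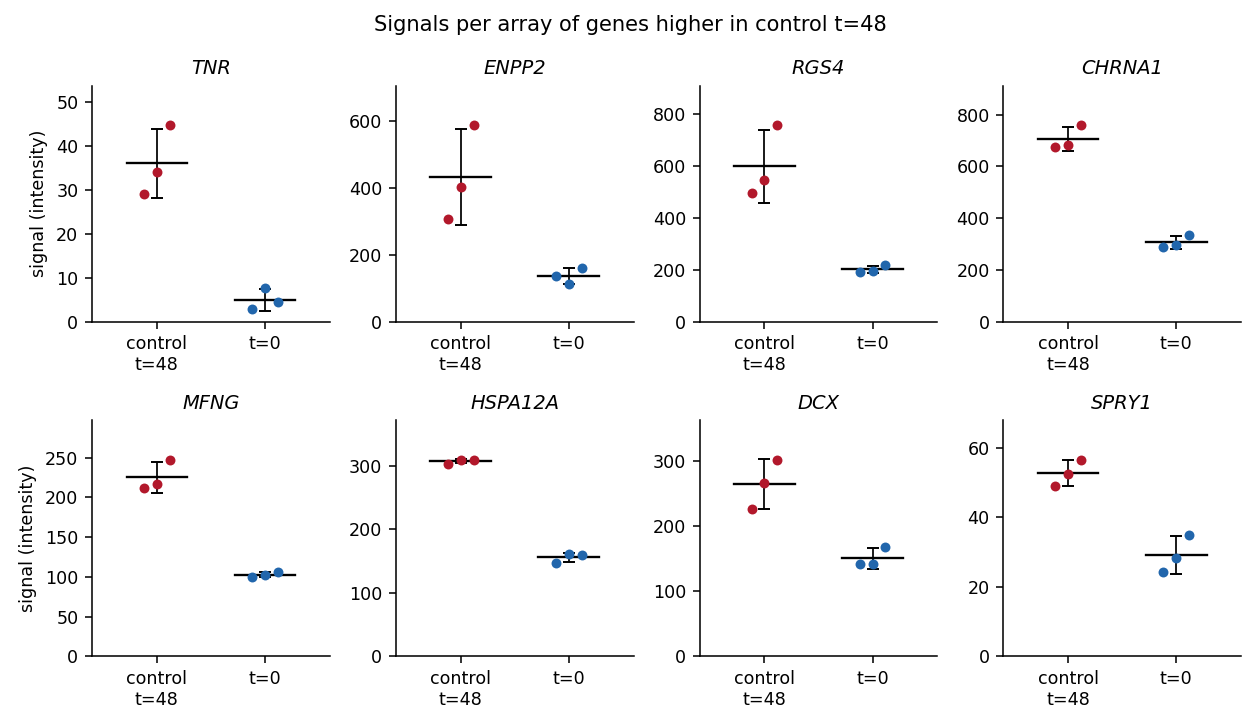
Signal (intensity, vertical axes from 0) of 8 genes higher in control cells, on the 3 control arrays at t = 48 (red, left) and the 3 arrays at t = 0 (blue, right) in each panel, with the mean as a line and the SD as bars. Each control array lies above each t = 0 array, and the control arrays spread most for ENPP2 and RGS4.

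Neuronal differentiation genes gave 1 call among 26 measured, with 0 lower and a median of 0.10. The gene was DCX, whose product doublecortin binds microtubules in migrating neurons, at 227, 266 and 303 in control cells at t = 48, against 142, 142 and 169 at t = 0 (0.79, SE 0.10, adjusted p = 0.00401). It passed without any 1 array. MAP2 gave 0.43 (adjusted p = 0.0648), SCN3A 0.54 (0.0906) and RTN1 0.43 (0.101), none of which passed. CRMP1, a gene for a phosphoprotein of growing axons, had the smallest change of the called genes, 0.30 (adjusted p = 0.0388). Its control arrays read 1144 to 1152 and its t = 0 arrays 923 to 941, and its call was lost when any 1 of them was left out.

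Genes that limit growth factor signalling rose in small number. Of 28 measured receptor tyrosine kinase and ERK feedback genes 3 rose and 0 fell, with a median of 0.18. They were PHLDA1 (271, 339 and 353 in control cells at t = 48, against 166, 128 and 181 at t = 0, adjusted p = 0.00653), a gene induced by growth factors, SPRED2 (0.53, adjusted p = 0.0131) and SPRY1 (0.77, adjusted p = 0.0495), which encode inhibitors of the Ras to ERK route. SPRY1 read 49.1, 52.5 and 56.5 in control cells at t = 48, against 24.1, 28.3 and 34.9 at t = 0. IL17RD, which encodes a membrane inhibitor of fibroblast growth factor signalling and was not in the list, rose by 0.71 (adjusted p = 0.0351). The number of list members that passed was 0 without control replicate 3, 1 without control replicate 2 and without t = 0 replicate 1 or 2, 2 without control replicate 1 and 3 without t = 0 replicate 3. IL17RD was lost without each of the 6 arrays, with adjusted p values up to 0.188.

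Lists of growth and stress genes gave few calls, where 0.846% of all genes tested passed. For the counts at an unadjusted p that follow, 1442 of all 12880 genes tested had an unadjusted p under 0.05 in limma. Of 37 measured genes of the G1-S phase and DNA replication, 0 passed in limma, with a median of -0.02 and 4 at an unadjusted p under 0.05. Of 36 genes of G2 and mitosis, 0 passed, with a median of -0.04, a range from -0.18 to 0.36 and 1 at an unadjusted p under 0.05. Signals did not overlap between the groups for 11 of the 37 and 4 of the 36, against 18.8% of all genes. CDT1, a replication licensing gene, gave 0.99 and did not pass (adjusted p = 0.194). MYCN, the amplified oncogene of this line, read 5181, 5716 and 5553 in control cells at t = 48, against 5525, 4887 and 5197 at t = 0, and the groups overlapped (0.08, adjusted p = 0.785). BTG1, an antiproliferative gene, rose by 0.46 (adjusted p = 0.0385) as the 1 of 21 cell cycle inhibitor and quiescence genes that passed, and SESN3 gave 0.92 and did not (adjusted p = 0.0731). BTG1 was lost without 5 of the 6 arrays, with adjusted p values up to 0.198.

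Hypoxia and glycolysis genes (34 measured), the integrated stress response (26), the unfolded protein response (22), cholesterol synthesis (20), extracellular matrix genes (28), p53 targets (19) and respiratory chain genes (19) had 0 members past the threshold. At an unadjusted p under 0.05 these lists had 9, 5, 4, 4, 5, 3 and 0 members in that order, beside 1442 of all 12880 genes. Lysosome genes had a median of -0.16 and targets of NRF2 one of -0.13, with 19 of 22 and 18 of 20 members below 0 and 0 past the threshold; 6 members of each had an unadjusted p under 0.05. Heat shock genes had a median of -0.15, with 20 of 23 members below 0. DNAJB1, a co-chaperone gene, was the 1 that fell (-0.45, adjusted p = 0.0281), and it was lost without any of the 6 arrays, with adjusted p values up to 0.172. Of the 3 DNAJB1 promoter windows, 2 hold GAANNTTC or TTCNNGAA, the core of a heat shock element, as do windows of 14 of the 20 other measured members that have one, against 16.2% of all genes. SELENOW and SELENOH (-0.36) were 2 of 23 measured selenoprotein genes, a list added after these values were seen, and the SELENOH call was lost without 5 of the 6 arrays (adjusted p up to 0.198). In all, 28 of the 43 lists had 0 genes past the threshold, and the lists together held 26 of the 109 called genes.

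**Figure D4:**
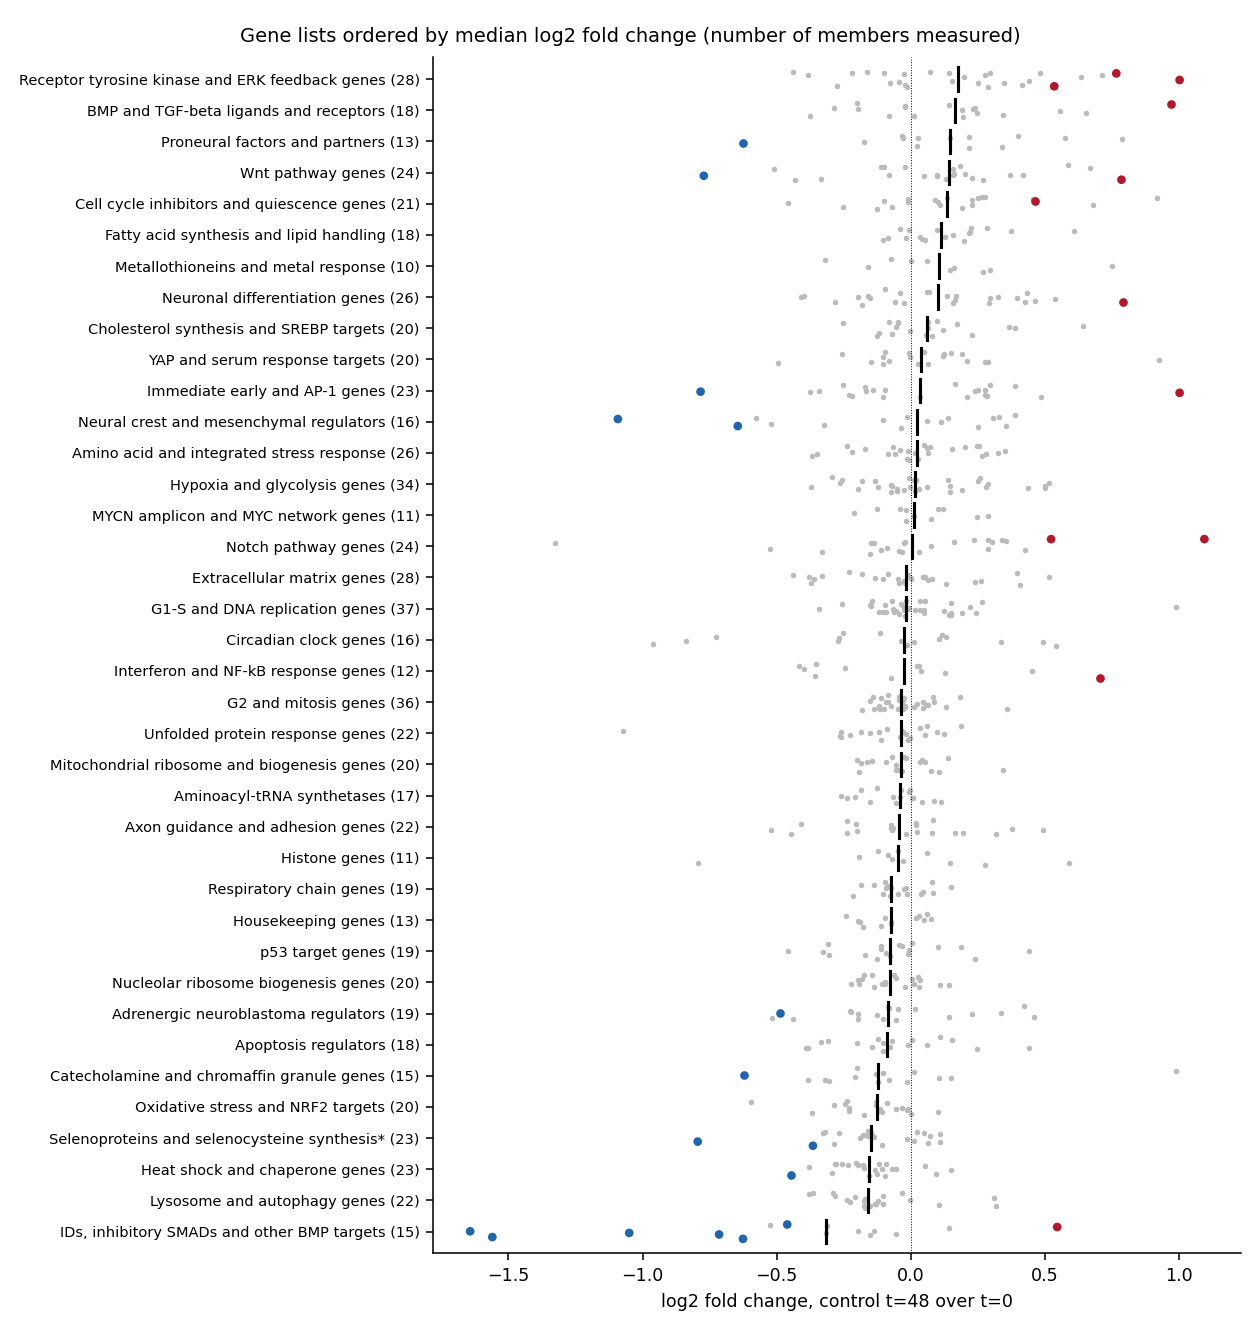
Log2 fold change, control t = 48 over t = 0 (horizontal axis), of the measured members of the 38 gene lists with at least 10 of them, 1 list per row, with the number measured in brackets; grey points did not pass, red and blue points rose and fell, black bars are medians, and the asterisk marks the list added after values were seen. The BMP target list stands lowest with a median of -0.32 and 6 blue points. The 2 cell cycle lists have medians close to 0 and no coloured point, as do other lists.

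The change of uninduced cells was then set beside steps of the induced time course that share no array with it. In limma, however, the spread of a gene was estimated over the whole series, and the same estimate served each comparison. A gene with a small estimate passes more easily in both, so the calls of the comparisons are not independent. How far this raised the shared counts was not tested. The log2 fold changes and their signs do not use that estimate. Between induced t = 48 and induced t = 24, 514 of the 12880 genes passed (3.99%). They included 68 of the 109 genes, and 66 of those moved in the same direction, 32 higher and 34 lower, which is 60.6% of the 109 and 12.8% of the 514. Without 1 array at a time the number that passed in both and moved the same way lay between 28 and 67. The 2 genes that moved in opposite directions were NOG and MYLK, a myosin kinase gene. Irrespective of the threshold, 101 of the 109 had the same sign in that step, and the median log2 fold change in it was -0.87 among the 47 fallers, 0.48 among the 62 risers and -0.01 among all genes. The share with the same sign over all genes was not counted. Over all genes the Pearson correlation of the 2 sets of fold changes was 0.30, a description across genes, which are not independent replicates.

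The earlier step, induced t = 24 against induced t = 8, had more calls of its own, 808 genes (6.27%), and shared fewer. It held 35 of the 109 genes, 26 in the same direction and 9 in the opposite one, and of the 26 there were 24 risers and 2 fallers. Irrespective of the threshold, 76 of the 109 had the same sign in it. The fallers had a median of 0.00 in that step and the risers one of 0.31. The correlation over all genes was 0.17. The difference between the steps was not tested.

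Single genes show the same course. ID1 had means of 1605 ± 265 at induced t = 8, 1332 ± 282 at induced t = 24 and 212 ± 44.6 at induced t = 48 (SD, n = 3 each), with 581 ± 100 in control cells at t = 48 and 1808 ± 68.8 at t = 0. For ID3 the means were 290, 312 and 60.3 at induced t = 8, t = 24 and t = 48, beside 84.4 in control cells at t = 48 and 257 at t = 0. Its step between induced t = 48 and induced t = 24 was -2.28 (adjusted p = 3.08e-06). HSPA12A had 109, 108 and 270 at induced t = 8, t = 24 and t = 48, beside 307 in control cells at t = 48 and 156 at t = 0. CHRNA1 had 317, 352 and 815 at these induced times, beside 706 in control cells at t = 48 and 307 at t = 0. For ID3, SAMD11, CHRNA1, MFNG and HSPA12A, the induced means at t = 8 and t = 24 thus lay nearer to the mean at t = 0 than to that of control cells at t = 48, and the induced mean at t = 48 lay nearer to the control one, except that MFNG at induced t = 48 (150) lay between 225 in control cells and 103 at t = 0, nearer to the second.

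**Figure D5:**
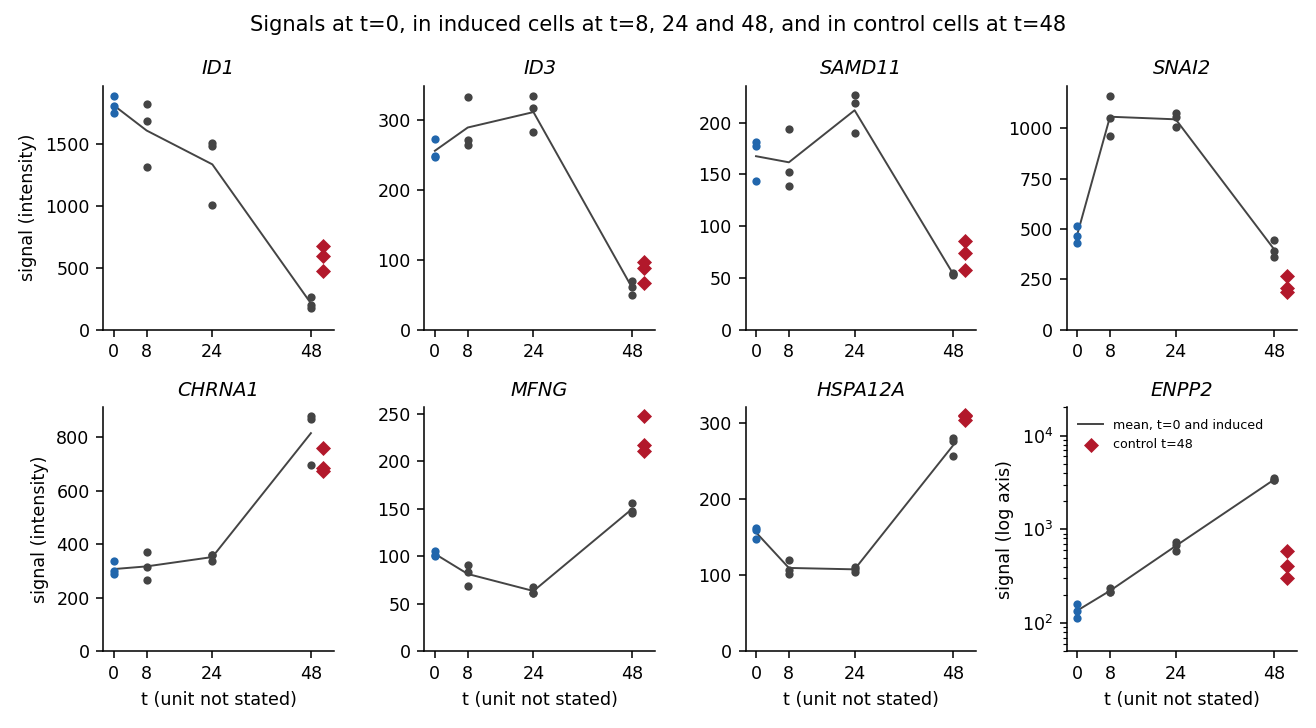
Signal (intensity, linear axes from 0, with a log axis for ENPP2) of 8 genes against t (unit not stated), with blue points for t = 0, grey points for induced cells at t = 8, 24 and 48, a line through the means of these, and red diamonds, drawn slightly to the right of 48, for control cells at t = 48. For ID1, ID3 and SAMD11 the line drops between t = 24 and t = 48 and for CHRNA1, MFNG and HSPA12A it climbs there, while ENPP2 climbs at each time and reaches 3410.0 in induced cells against 432 in control cells. The SNAI2 line climbs from 471 at t = 0 to 1057 at t = 8 and drops after t = 24 to 398.

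Other genes that passed in both are given here by their log2 fold change in each. SNAI2 gave -1.09 in uninduced cells and -1.39 between induced t = 48 and induced t = 24, SCN3B gave -0.97 and -1.27, and SAMD11 gave -1.16 and -1.88. The SNAI2 mean had risen to 1057 and 1044 at induced t = 8 and t = 24, above the 471 of t = 0. At induced t = 48 it was 398 and did not differ from t = 0 (-0.24, limma adjusted p = 0.214). SFRP1, the gene of a secreted Wnt antagonist, gave -0.77 and -1.29, although it had stood at 837 and 1243 at induced t = 8 and t = 24, above the 397 of t = 0. Among risers SLC44A5 gave 1.40 and 1.55, MFNG 1.09 and 1.18, OPRK1 0.92 and 1.31 and PLCL1, a phospholipase-like gene, 0.82 and 0.82. These genes are among the 10 in each direction whose smaller change of the 2 was largest. SOX9, FAM43A, RHOB and MSX1, which also fell in both, had higher means at induced t = 8 and t = 24 than at t = 0 as well.

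At t = 48 induced cells can be set against the same control arrays, which enter both comparisons, so the values are only placed side by side. ID3 (-0.45, adjusted p = 0.0759), SAMD11 (-0.38, 0.142), CHRNA1 (0.20, 0.357), HSPA12A (-0.18, 0.157) and LIMCH1 (-0.05, 0.797) did not pass between induced and control cells at t = 48. ID1 was lower still in induced cells (-1.44, adjusted p = 0.000543). SNAI2 (0.85) and SOX9 (0.85) were higher in induced than in control cells at t = 48, after falls of 1.09 and 0.65 in the uninduced ones. ENPP2 (3.02), OPRK1 (1.98), GPR155 (1.27) and RGS4 (0.91) were higher again with induction, and MFNG (-0.57), CDH6 (-0.75) and GKAP1 (-1.07) were lower.

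Of the 109 called genes, 66 had a further probe set that was bright enough to be kept, 110 probe sets in all. Of these 110, 104 had the same sign as the probe set used, 12 passed when p-values were adjusted over 30676 probe sets, and those 12 had the same sign. None of the 110 had an unadjusted p under 0.05 in the opposite direction. RGS4 gave 1.50 and 1.05 on its 2 further sets and ENPP2 1.16 on its 1, all of which passed. LRATD2 (0.81) and OPRK1 (0.92) each had a further set near 0, at 0.00 and 0.01, and C11orf96 one at -0.02. A set of opposite sign was found for DGCR2 (0.62 against -0.40), MAML3 (-0.38 against 0.52) and GRHL1 (-0.30 against 0.77). SLC6A2 (0.18 against -0.62), CDH6 (-0.18 against 1.09) and MYLK (-0.07 against 0.52) had one too.

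The arrays were checked against markers of neuroblastoma and of other cells. Of 9 neuroblastoma identity markers on the array, 8 lay above the array median on each of the 6 arrays, and TH, the tyrosine hydroxylase gene, lay below it on each, at 1.2 to 3.6 in control cells at t = 48 and 1.0 to 1.2 at t = 0. Their summed signal was 11677 to 12263 in control cells at t = 48 and 11580 to 12533 at t = 0, and the groups overlapped. The 11 fibroblast and smooth muscle markers summed to 1581 to 1690 in control cells at t = 48 and to 1294 to 1434 at t = 0, without overlap. Most of that sum came from COL1A1 (407 to 521 in control cells at t = 48, 308 to 407 at t = 0) and PDGFRA (852 to 941 in control cells at t = 48, 694 to 781 at t = 0), FAP and LUM stayed below the array median on the 6 arrays, and of the 9 markers tested 0 passed in limma and 2 had an unadjusted p under 0.05. The part of this shift in the changes above was not tested. Summed Schwann cell markers (25.4 to 59.1 in control cells at t = 48, 28.5 to 47.1 at t = 0), epithelial markers (38.3 to 87.0 in control cells at t = 48, 39.2 to 84.7 at t = 0) and blood and endothelial markers (125 to 204 in control cells at t = 48, 125 to 168 at t = 0) overlapped between the groups. Below the array median on each of the 6 arrays lay 4 of 5 Schwann cell markers, SOX10 and S100B among them. So did 5 of 7 epithelial markers, CDH1 and EPCAM among them, and 5 of 9 blood and endothelial ones. PECAM1 and HBB, of the last list, lay above it on each of the 6.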

How the data were processed

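RNA of 15 IMR32 samples was hybridised to Affymetrix arrays, and the 3 control arrays at t = 48 and the 3 at t = 0 were compared. The authors deposited intensity values on a linear scale, which the submitters' processing notes trace to MAS5 and GCOS; versions and settings are not given in the sources used here. Arrays have no read depth, and precision is set by having 3 of them per group.

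Of 54675 probe sets, 41091 had 1 gene symbol in the platform annotation, 1801 several, 11721 were not listed and 62 were controls; 41037 of the single symbols were matched to RefSeq by gene ID. Signals were kept as scaled by the authors, 5.16 (the mean lower quartile) was added, and log2 was taken. Probe sets reaching the array median on at least 3 of the 15 arrays were kept, and the brightest stood for its gene, which left 12880 genes. Fold changes of dim genes are understated on this scale. Group means of the 5 groups were fitted over the 15 arrays with limma 3.58.1 (lmFit, eBayes, two-sided) in R 4.3.3, with Benjamini-Hochberg adjustment over all genes and a threshold of 0.05. The script was tested on simulated data. Lists were described by counts and medians. Named genes were the 20 largest rises and 20 largest falls among called genes whose arrays did not overlap, MSX1, MYCN, members of the lists, and the 10 largest changes in each direction shared with induced t = 48 against induced t = 24. Genes with a fold change outside this rule (CRABP2, CRMP1, DGCR2, GALNT16, GPR160, GRHL1, IL17RD, MFAP4, MYLK, SLC1A1 and SLC1A2) and the called genes named only for a difference between induced and control cells were chosen after their values were seen. The comparison, lists and tests were chosen with earlier results of these data known. Alternatives to each choice are given at the end.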

Additional observations from a re-analysis of the deposited data

Results flagged for a closer look

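For 51 of the 109 genes called in the control comparison, induced and control cells at t = 48 differed past an adjusted p of 0.05 in limma, so that the change from t = 0 differed between induced and uninduced cells. Over all 12880 genes tested, 1101 differed between induced and control cells at t = 48 by that threshold. The values are induced minus control on the log2 scale, and they share the control arrays with the comparison above. Higher in induced cells were 29 genes, ENPP2 (3.02), SPOCK1 (2.18), OPRK1 (1.98), GPR155 (1.27), MBNL2 (1.16), SFRP1 (1.12), FAM43A (1.01), RGS4 (0.91), RIIAD1 (0.90), SNAI2 (0.85), SOX9 (0.85), CHST8 (0.83), PALMD (0.80), MAML3 (0.78), DCX (0.77), RHOB (0.69), DLX5 (0.67), CRABP2 (0.66), STAMBPL1 (0.65), MSX1 (0.65), NOG (0.62), GALNT16 (0.62), PLCL1 (0.52), GRK3 (0.52), PLD5 (0.50), DGCR2 (0.45), SPRED2 (0.44), CRMP1 (0.34) and PYGL (0.33). Lower in induced cells were 22 genes, ID1 (-1.44), C11orf96 (-1.20), GKAP1 (-1.07), MARCHF11 (-0.97), KANK4 (-0.86), CNTN3 (-0.82), CDH6 (-0.75), PHLDA1 (-0.68), EMILIN2 (-0.65), SPRY1 (-0.59), TRHDE (-0.58), MFNG (-0.57), LAYN (-0.57), TAFA5 (-0.50), SCN3B (-0.45), TLX2 (-0.43), IFI44L (-0.42), SMAD6 (-0.42), ADAMTS9 (-0.42), DIRAS3 (-0.38), GPC3 (-0.38) and MARK4 (-0.34). With no arrays here of construct-free cells given the drug, MSX1 and doxycycline cannot be told apart in these differences.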

How the results depend on the processing

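The count of 109 changed genes was 56 with no filter on low signals, 175 with the stricter filter, 41 at an adjusted p of 0.01, 0 with only the 6 compared arrays (1439 at an unadjusted p under 0.05), and 33 to 88 with 1 compared array left out. The other alternatives gave between 84 and 141. Whether the replicate numbers pair the samples is not stated. Deviations of same-numbered control and t = 0 arrays correlated at -0.26, -0.13 and 0.09, and those of different-numbered ones at -0.22 to 0.29. With 3 arrays a group this cannot decide the question. With the replicate block the count was 84. MSX1 kept its direction in each setting run, and with only the 6 arrays its -1.05 had an adjusted p of 0.113. The 66 genes shared with induced t = 48 against induced t = 24 became 41 with no filter, 103 with the stricter filter, 31 at an adjusted p of 0.01 and 28 to 67 with 1 array left out; with only the 6 arrays this count had no value. DGCR2 reversed to 0.11 when the probe sets of a gene were averaged, and 107 of the 108 called genes other than MSX1 kept their direction in each setting run. The causes of these shifts were not tested, beyond the number of genes or arrays that a setting itself removes. Dim genes near the array median, such as TGFA, TNR, NOG and OPRK1, are measured least well.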
